A study of Mus musculus with 6 samples.

Results

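The preadipocyte commitment factors described here are 10 genes: the zinc finger genes Zfp423, Zfp521 and Zfp467, the early B cell factor genes Ebf1, Ebf2 and Ebf3, the GATA factor genes Gata2, Gata3 and Gata6, and Medag. They were found by platform gene symbol, which gave 25 of the 45101 probe sets on the array and 10 of the 18194 genes that the platform annotation names singly. None of the 25 was shared with another symbol. RNA came from C3H10T1/2, a mouse mesenchymal cell line that can be turned into fat, cartilage, bone or muscle cells in culture. One group of 3 samples received BMP4, a secreted bone morphogenetic protein, at 50 ng/ml while proliferating, and the other group of 3 samples was untreated. All 6 samples were total RNA taken past confluence, and each was measured on 1 single-colour array. The labels do not say whether replicates were separate cultures, so the p-values measure the spread between these samples only, which may be technical.

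Commitment turns a mesenchymal stem cell into a preadipocyte that is fixed on the fat lineage but holds no lipid yet. ZFP423 is a zinc finger protein that raises the response to BMP-activated Smad proteins and promotes expression of Pparg, the master regulator of fat cells. ZFP521 is its close relative and opposes it, partly by binding EBF1, and ZFP467 favours fat over bone in marrow stromal cells. The EBF proteins are helix-loop-helix factors that promote adipogenesis, with EBF2 best known from brown and beige precursors. GATA2 and GATA3 hold preadipocytes undifferentiated by repressing Pparg, and GATA6 is a regulator of mesoderm and endoderm that also acts in brown fat precursors. MEDAG is a cytoplasmic protein that promotes differentiation of preadipocytes, so it belongs to the process without being a transcription factor.

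RefSeq promoter windows of GRCm38.p6 were used for 7 of these genes, 11 windows in all, and were cut to the 250 bases before each annotated start. No window of Zfp521, Ebf2 or Gata6 was used, which does not show that these genes lack one. Windows of the genes with a changed probe set are shown because Ebf1, Ebf3 and Medag were lower together while Zfp423 was higher. Ebf3 had 1 window, and Zfp423, Ebf1 and Medag had 2 each. For each gene the window furthest upstream is shown, and the inner window where it held a motif, which was so for Zfp423 only. The upstream Zfp423 window is chr8:87959596-87959845 and the inner one chr8:87804440-87804689, at a start inside the annotated gene, both on the minus strand. The Ebf3 window is chr7:137314446-137314695 on the minus strand. The Ebf1 window is chr11:44617850-44618099 and the Medag window chr5:149411499-149411748, both on the plus strand. Capitals mark CCCNNGGG, the core of an EBF site, or GGCGCC, a GC-rich element bound by BMP Smads, searched on both strands.
Zfp423 upstream: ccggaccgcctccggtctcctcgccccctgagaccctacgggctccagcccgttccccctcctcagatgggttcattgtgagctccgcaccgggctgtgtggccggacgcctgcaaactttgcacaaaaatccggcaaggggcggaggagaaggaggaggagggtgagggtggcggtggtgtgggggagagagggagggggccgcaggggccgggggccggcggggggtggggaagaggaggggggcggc
Zfp423 inner: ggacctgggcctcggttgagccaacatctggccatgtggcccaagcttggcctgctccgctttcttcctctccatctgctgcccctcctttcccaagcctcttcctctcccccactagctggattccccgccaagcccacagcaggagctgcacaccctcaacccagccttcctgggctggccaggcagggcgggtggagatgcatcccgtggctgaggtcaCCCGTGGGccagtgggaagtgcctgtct
Ebf3: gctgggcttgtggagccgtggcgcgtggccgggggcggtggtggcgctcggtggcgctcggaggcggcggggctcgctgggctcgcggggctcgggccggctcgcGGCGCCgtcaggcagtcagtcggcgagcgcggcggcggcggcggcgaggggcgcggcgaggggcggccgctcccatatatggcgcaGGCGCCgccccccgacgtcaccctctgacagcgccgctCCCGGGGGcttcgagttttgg
Ebf1: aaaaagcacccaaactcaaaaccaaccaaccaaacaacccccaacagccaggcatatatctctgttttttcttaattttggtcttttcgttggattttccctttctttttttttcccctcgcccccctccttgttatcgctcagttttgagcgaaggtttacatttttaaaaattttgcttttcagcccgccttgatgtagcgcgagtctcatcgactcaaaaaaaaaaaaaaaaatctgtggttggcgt
Medag: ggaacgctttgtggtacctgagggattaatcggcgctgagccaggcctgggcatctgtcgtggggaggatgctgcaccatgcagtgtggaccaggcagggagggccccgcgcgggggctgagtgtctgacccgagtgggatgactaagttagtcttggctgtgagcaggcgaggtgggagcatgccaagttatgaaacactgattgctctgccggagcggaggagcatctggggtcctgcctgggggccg

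The upstream Zfp423 window held neither motif, and the inner one held 1 EBF core, starting 28 bases before the annotated inner start. The Ebf3 window held 1 EBF core, 21 bases before the start, and 2 Smad elements, 145 and 59 bases before it. No window of Ebf1 or Medag held either motif. Among the 11 windows used for the 7 genes 4 held the EBF core and 3 held the Smad element, while a site of the GATA factors, spelled AGATAA, was in 0. Over all 32851 windows of this length, not limited by chromosome, the share was 11.8% for the EBF core. It was 9.59% for the Smad element and 9.99% for the GATA site. A match describes letters in a window and is not evidence of binding.

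Values are linear signals as deposited, in arbitrary units. Their 2% trimmed mean was 150 on every array, and median signals were 37.6 to 42.6 on the BMP4 arrays and 35.2 to 37.3 on the control arrays. The highest signal of 27 bacterial control probe sets with no matching RNA was 29.1 and is used as the level of background. Signals above it made up 56% to 59% of probe sets on the BMP4 arrays and 54.4% to 55.7% on the control arrays. The part of this difference in small rises of dim genes was not tested. Changes are differences of log2(signal + 16), BMP4 minus control, which understate the change of dim genes. They were tested with limma on 27022 probe sets whose mean passed the 40th percentile (a signal of 23.5), with Benjamini-Hochberg adjustment over all of them. A probe set rose or fell where its adjusted p was under 0.05. Precision is limited by having 3 arrays in each group.

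The cells carried the markers of mesenchymal cells on all arrays. The 10 markers, led by Vim and the type I collagen genes, had a summed signal of 51379 to 60455 with BMP4 and 45232 to 56070 without it. Of the 10, 0 rose while 1 fell, the mesenchymal factor Twist1 (-0.48 ± 0.13, SE, limma adjusted p = 0.044, or 0.107 with no filter). Summed signals of 7 haematopoietic markers were 131 to 216 with BMP4 and 157 to 184 without it. Of the 7, 3 were below background on all arrays, Ptprc among them, while Cd68 and Adgre1 were above it on all 6. Summed signals of 6 endothelial markers were 147 to 245 with BMP4 and 234 to 259 without it, with Pecam1 and Tie1 below background on all arrays. The receptor Tek, above background on all 6 arrays, was the 1 gene that was lower (-0.69, limma adjusted p = 0.0167). Sums of 5 epithelial markers were 334 to 600 with BMP4 and 461 to 567 without it. Epcam and Krt8 were above background on all 6 arrays, and 2 of the 5 were below it on all arrays. Sums of 5 neural markers were 267 to 274 with BMP4 and 240 to 289 without it. Map2 was above background on all 6 arrays, and 2 of the 5 were below it on all arrays. The part of other cells in the results was not tested. In RNA from a whole culture, fewer cells that express a gene and less RNA per cell cannot be told apart.

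Medag had by far the largest change among these genes and Zfp423 was the only one with a probe set that rose. Of the 25 probe sets 17 passed the filter, covering 7 genes, and the 8 others lay near or below background. Of the 17, 1 rose, 7 fell and 9 did not pass the test, so 47.1% were called, against 9.12% of all probe sets tested (4.2% higher and 4.91% lower). With each array centred on its median, 25.1% of all called probe sets were higher, against 46.1% as deposited, and the member calls were then 1 higher and 8 lower. The 17 are not independent, since Ebf1 supplied 4 of the 7 falls and Medag 2. Counted by gene, with a call on any probe set, 1 had a probe set that rose and 3 had probe sets that fell, while 3 tested genes had no call. Ebf3 had no call on its probe set of highest mean, the 1 used elsewhere to represent a gene. By that stricter rule 10.7% of all 12966 genes tested were called (5.03% higher and 5.66% lower). The arrays of one group lay wholly to one side of the other at 11 of the 17, against 28.2% of all probe sets tested. The median change was -0.15 over the 17 probe sets and 0.03 over all tested.

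**Figure D1:**
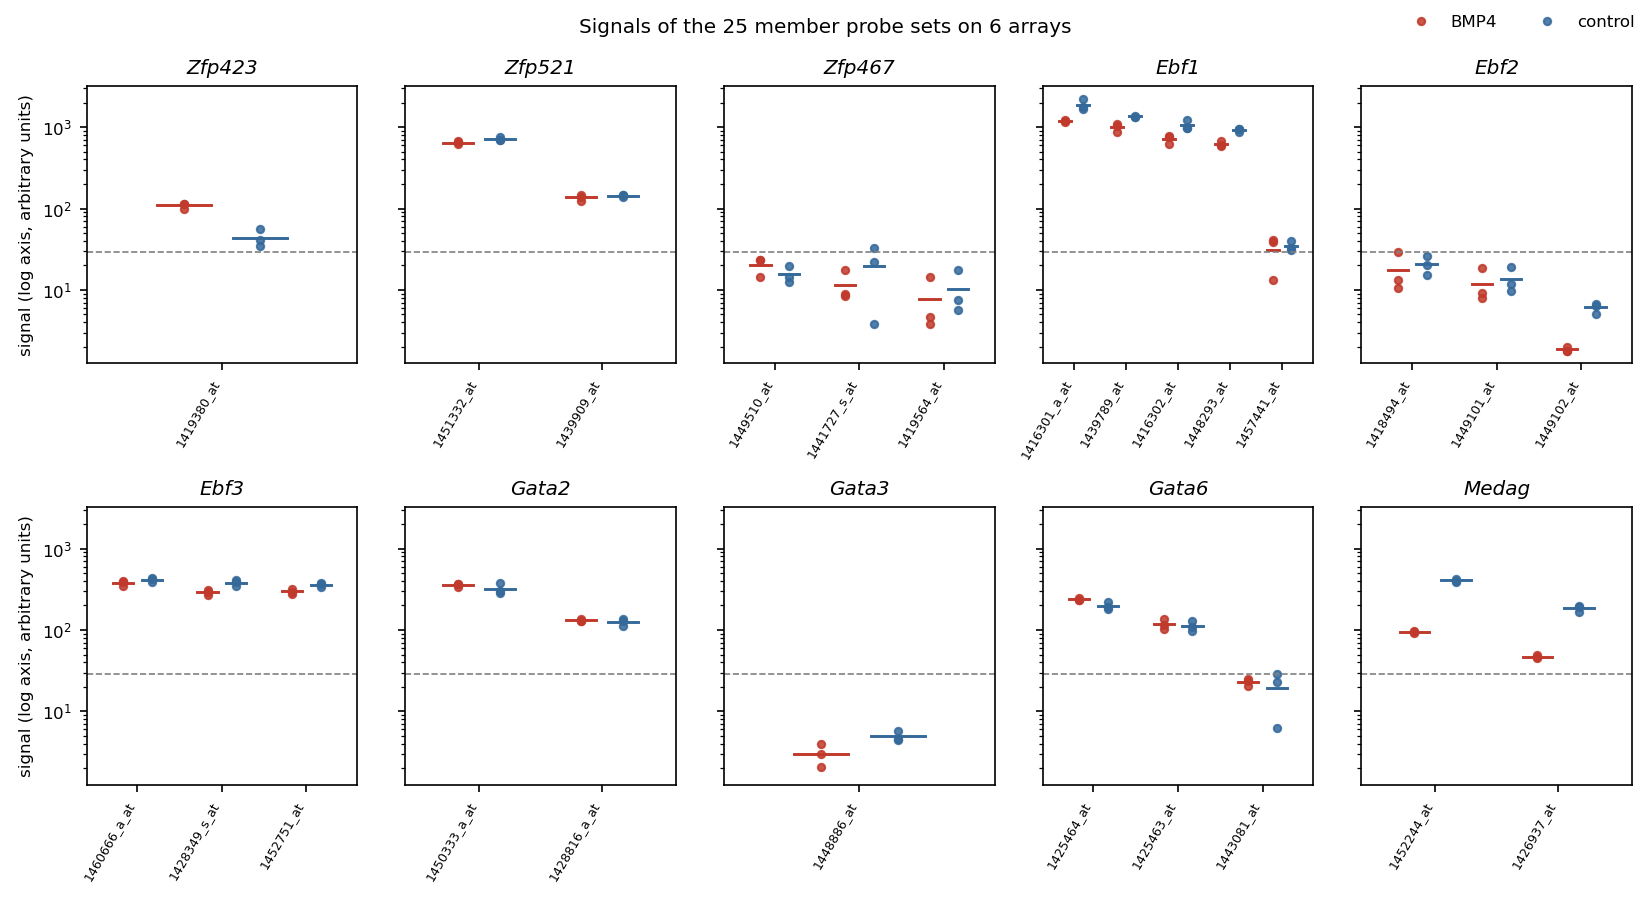
Signal on a log axis in arbitrary units for each of the 25 probe sets, 1 panel per gene, with 3 BMP4 arrays left in red and 3 control arrays right in blue. Short lines are group means and the dashed line is the highest bacterial control signal, 29.1. Zfp467, Ebf2 and Gata3 lie near or below background, Medag and Ebf1 are lower with BMP4, and Zfp423 is higher.

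The activator Zfp423 rose with BMP4. Its single probe set, 1419380_at, had signals of 114, 114 and 99.1 on the BMP4 arrays, against 55.3, 34.7 and 41.3 on the control arrays. Every BMP4 array lay above every control array, and all 6 values were above background, the control ones only a little. Mean signals were 109 ± 8.60 with BMP4 and 43.8 ± 10.5 without it (SD, n = 3 each), a 2.49-fold difference of means. The log2 change was 1.08 ± 0.16 (SE, limma adjusted p = 0.00162, 95% interval 0.72 to 1.43). Among the 27022 probe sets tested it ranked 111 from the largest rise, and 0.947% of them had a larger absolute change. A pseudocount of 64 gave 0.69 and one of 4 gave 1.26, and the call held in all 17 alternative settings (adjusted p 0.000913 to 0.00984). There is no other probe set for this gene on which to repeat the measurement.

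Zfp521, the relative that opposes ZFP423, did not pass the test on either of its probe sets. The brighter one, 1451332_at, had 611, 667 and 652 with BMP4 and 752, 689 and 686 without it. Each BMP4 array lay below each control array there, by little, and the change was -0.14 ± 0.07 (SE, limma adjusted p = 0.281, 95% interval -0.29 to 0.02). The dimmer one, 1439909_at, had 139, 125 and 148 with BMP4 and 145, 148 and 139 without it, a change of -0.06 (95% interval -0.29 to 0.17, adjusted p = 0.772) with overlapping groups. Zfp467 was at background: its 3 probe sets lay between 3.8 and 33.1, with 1 value above 29.1, and none passed the filter.

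Ebf1 was lower with BMP4 on each of its 4 bright probe sets. On 1416301_a_at it had 1158, 1239 and 1191 with BMP4 and 1757, 2237 and 1654 without it. Each control array stood well above each BMP4 array, and control replicate 2 was the brightest. The change was -0.64 ± 0.10 (SE, limma adjusted p = 0.00252), with means of 1196 ± 40.5 on the BMP4 arrays and 1883 ± 311 on the control arrays (SD, n = 3 each). On 1448293_at the signals were 581, 678 and 605 with BMP4 and 947, 957 and 871 without it, a change of -0.56 ± 0.08 (adjusted p = 0.000821). On 1416302_at they were 759, 781 and 618 with BMP4 and 1218, 965 and 961 without it, and on 1439789_at 1088, 1032 and 869 with BMP4 and 1338, 1328 and 1381 without it. These gave -0.53 ± 0.11 (adjusted p = 0.0118) and -0.44 ± 0.08 (adjusted p = 0.00769). In all 4 the groups were apart, and control means were 1.35 to 1.57 times the BMP4 means. Without limma's intensity trend, 1439789_at (adjusted p = 0.069) and 1416302_at (0.0823) were not past the test. The other Ebf1 probe set, 1457441_at, was near background at 41, 39.1 and 13.2 with BMP4 and 32.4, 39.5 and 31.1 without it (-0.15, 95% interval -0.73 to 0.42, adjusted p = 0.778).

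Ebf3, another member of the same family, moved the same way by less, and its call depended on the probe set. On 1428349_s_at it had 266, 312 and 290 with BMP4 and 415, 385 and 346 without it, a change of -0.38 ± 0.09 (SE, limma adjusted p = 0.023). The ending _s_at marks probes that can match transcripts of more than 1 gene. On 1452751_at it had 279, 321 and 291 with BMP4 and 381, 338 and 363 without it, a change of -0.27 ± 0.08 (adjusted p = 0.0722). On the brightest, 1460666_a_at, it had 403, 385 and 352 with BMP4 and 385, 436 and 420 without it, a change of -0.12 ± 0.08 (adjusted p = 0.419). The groups were apart on the first pair of these and overlapped on the third. The call on 1428349_s_at was lost without BMP4 replicate 1 (adjusted p = 0.0668), BMP4 replicate 3 (0.0554), control replicate 1 (0.1) or control replicate 2 (0.0811), without the filter (0.0501) and without the intensity trend (0.0978). With each array centred on its median 1452751_at passed (-0.36, adjusted p = 0.0363). Whether Ebf1 and Ebf3 changed by different amounts was not tested.

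Ebf2 was at background on all 3 of its probe sets, with signals between 1.8 and 28.9. On 1449102_at the values were 2, 1.8 and 1.8 with BMP4 and 6.4, 6.8 and 5.1 without it. Those groups did not overlap, but every value was far below 29.1, and with no filter the adjusted p was 0.117. This brown precursor factor was thus not above background in either group.

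**Figure D2:**
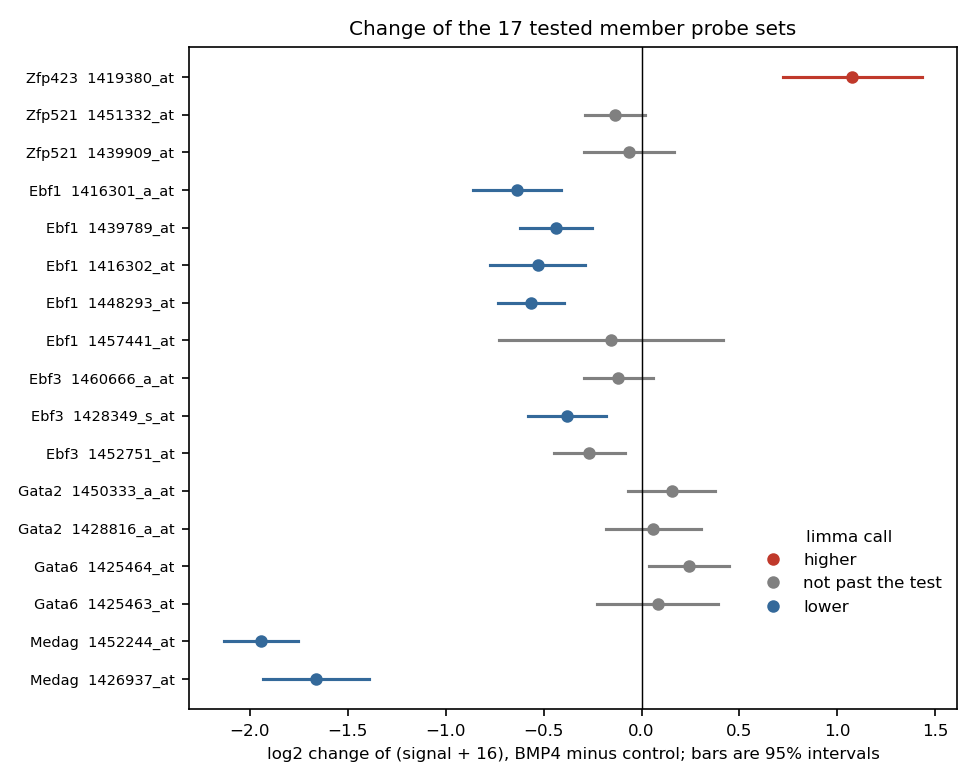
Log2 change of (signal + 16), BMP4 minus control, for the 17 probe sets that passed the filter, with 95% intervals from limma. Red marks the 1 that rose, blue the 7 that fell and grey the 9 that did not pass the test; the Medag values of -1.94 and -1.66 stand apart from the rest.

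Gata2 and Gata6 did not pass the test, and Gata3 was removed by the filter. Gata2, which represses Pparg in preadipocytes, had 338, 367 and 368 with BMP4 and 284, 305 and 376 without it on 1450333_a_at, a change of 0.15 (95% interval -0.07 to 0.38, limma adjusted p = 0.408). The brightest control array exceeded every BMP4 array, so the groups overlapped. On 1428816_a_at Gata2 had 130, 129 and 137 with BMP4 and 129, 112 and 138 without it, a change of 0.06 (95% interval -0.18 to 0.31, adjusted p = 0.799). Gata3, the other GATA repressor of Pparg, had 4, 3 and 2.1 with BMP4 and 4.6, 4.5 and 5.8 without it, far below background on all 6 arrays.

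Gata6 was the GATA gene nearest to the threshold. On 1425464_at it had 247, 232 and 234 with BMP4 and 220, 183 and 193 without it, with every BMP4 array above every control array. The change was 0.24 ± 0.09 (SE, 95% interval 0.04 to 0.44) with an unadjusted p of 0.0235 and a limma adjusted p of 0.143. On 1425463_at the values were 102, 116 and 137 with BMP4 and 108, 128 and 96.4 without it, a change of 0.08 (adjusted p = 0.779) with overlapping groups. The remaining Gata6 probe set, 1443081_at, stayed between 6.2 and 29.1.

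Medag fell steeply with BMP4 on both of its probe sets. On 1452244_at it had 90.6, 96 and 94 with BMP4 and 391, 398 and 428 without it. Replicates of each group were close together and the groups were far apart. Means were 93.5 ± 2.73 with BMP4 and 406 ± 20.0 without it (SD, n = 3 each), so the BMP4 mean was lower by 4.34 times. The log2 change was -1.94 ± 0.09 (SE, limma adjusted p = 4.65e-07). On 1426937_at it had 49.2, 46.5 and 45.4 with BMP4 and 198, 164 and 190 without it, a change of -1.66 ± 0.12 (adjusted p = 1.39e-05). Both probe sets were above background on all 6 arrays. Counted from the largest fall, the 2 probe sets ranked 26 and 47 among the 27022 tested. Across the 17 alternative settings the first ranged over -2.07 to -1.58 and the second over -1.88 to -1.16, and both calls held in each.

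**Figure D3:**
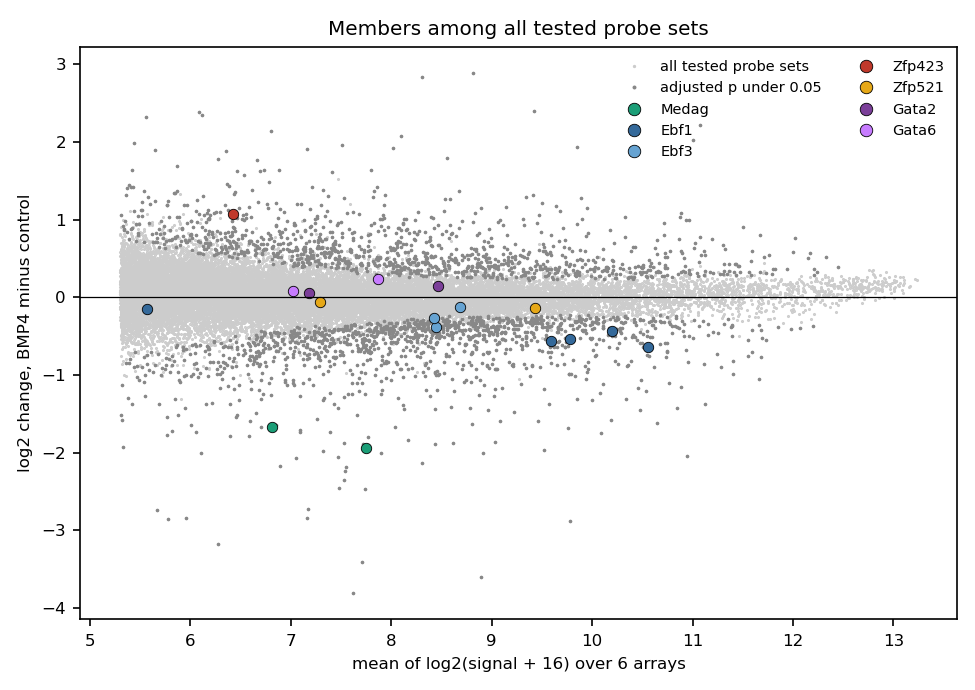
Each point is 1 tested probe set, with the mean of log2(signal + 16) over 6 arrays on the horizontal axis and the log2 change, BMP4 minus control, on the vertical axis. Dark grey points have an adjusted p under 0.05. Medag lies near the lower edge and Zfp423 above the cloud, Ebf1 lies below it at high signal, and Zfp521, Gata2 and Gata6 lie inside it.

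The genes whose values followed Medag most closely over the 6 arrays all fell, which follows from how they were picked. By Pearson r of log2 values with 1452244_at they were Notch3, a Notch receptor (r = 0.9996), Col18a1, a basement membrane collagen (0.9993), Nampt, an enzyme of NAD synthesis (0.9990), Dcn, the proteoglycan decorin (0.9988), and Pltp, a phospholipid transfer protein (0.9987). These r values describe 6 arrays in 2 groups and mostly reflect the gap between the groups. Notch3 had 242, 247 and 243 with BMP4 and 582, 568 and 596 without it, a change of -1.20 ± 0.07 (SE). Dcn had 937, 1024 and 901 with BMP4 and 3816, 4023 and 4091 without it, a change of -2.04, close to that of Medag. Nampt (-0.54) and Pltp (-0.61) changed by less, and Col18a1 by -1.67 on 1418237_s_at.

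Proteins that work with ZFP423 and the EBF factors mostly did not pass the test. Of 13 genes, all above the filter, 1 rose and 1 fell, with a median change of -0.01, against 0.03 over the 12966 genes tested, of which 5.03% rose and 5.66% fell. Ccn5, a secreted matricellular protein that holds ZFP423 in the cytoplasm, had 334, 330 and 333 with BMP4 and 701, 827 and 802 without it, a change of -1.18 ± 0.08 (SE, limma adjusted p = 4.97e-06). Every BMP4 array lay far below every control array. Ehmt1, a histone methyltransferase that acts with PRDM16 in brown fat, had 1001, 1012 and 974 with BMP4 and 708, 755 and 878 without it, a change of 0.35 ± 0.08 (adjusted p = 0.0212). That call was lost without BMP4 replicate 1 (adjusted p = 0.0538), BMP4 replicate 2 (0.0702), control replicate 1 (0.0721) or control replicate 2 (0.085), with no filter, with median centring and without the intensity trend. The Smad proteins that carry the BMP signal are represented by Smad1 (0.11, adjusted p = 0.411) and Smad4 (-0.19, adjusted p = 0.193), both named after their values were seen. On these probe sets every BMP4 array lay above every control array for Smad1 and below for Smad4. Other Smad1 probe sets gave 0.03 (adjusted p = 0.918) and -0.15 (0.297), the latter with every BMP4 array below every control array. Other Smad4 probe sets gave -0.06 (adjusted p = 0.782) and -0.19 (0.194).

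Of 11 relatives and cofactors of the GATA and EBF factors 7 passed the filter, of which 1 rose and 0 fell (limma, median 0.06). The gene that rose was Trps1, an atypical GATA protein that represses transcription, with 841, 862 and 867 with BMP4 and 709, 731 and 723 without it (0.24 ± 0.06, SE, limma adjusted p = 0.0297). Its call was lost without any 1 of the 6 arrays (adjusted p 0.0505 to 0.0895), with median centring, with a replicate block and without the intensity trend, and its other probe sets gave 0.20 (adjusted p = 0.16) and 0.13 (0.413). Gata4, Gata5 and Ebf4 are named after their values were seen. Gata4 gave 0.06 (adjusted p = 0.858) on its brighter probe set and 0.32 (adjusted p = 0.277) on a dimmer one, where every BMP4 array lay above every control array. Gata5 and Ebf4 did not pass the filter.

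Adipogenic factors outside the members moved in both directions: of 14 genes 13 passed the filter, 4 rose and 2 fell, with a median of -0.25. Pparg had 318, 305 and 344 with BMP4 and 205, 190 and 181 without it, a change of 0.70 ± 0.09 (SE, limma adjusted p = 0.000402). Cebpa, its partner in terminal adipogenesis, had 281, 322 and 365 with BMP4 and 145, 140 and 169 without it, a change of 1.01 ± 0.11 (adjusted p = 0.000188). Both thus rose together with Zfp423, with groups apart. The Krüppel-like factor Klf5 rose by 0.60 (adjusted p = 0.0128; 0.0593 without control replicate 1 and 0.0561 without the intensity trend), with 0.20 (adjusted p = 0.556) on a dimmer probe set. The signal carrier Stat5a (0.36), Klf4 (-0.46) and Creb1 (-0.30, adjusted p = 0.0372) complete the calls at 1 probe set per gene and are named after their values were seen. The Stat5a call was lost with median centring (adjusted p = 0.068) and without the intensity trend (0.0544), and its other probe set gave 0.14 (adjusted p = 0.376). Klf4 gave -0.51 (adjusted p = 0.0113) on its other probe set, and its call held in all 17 settings. The Creb1 call was lost in 9 of the 17 settings. It was not past the test without BMP4 replicate 1 (adjusted p = 0.103), BMP4 replicate 3 (0.0798), control replicate 1 (0.132), control replicate 2 (0.0958) or control replicate 3 (0.0636). Nor was it with no filter (0.0661), with quantile normalization (0.0562), with a replicate block (0.0699) or without the intensity trend (0.135). The 4 other Creb1 probe sets did not pass the test, with changes of -0.31 to 0.13 (adjusted p 0.345 to 0.705). Outside the count, a dimmer probe set of Egr2 fell (-0.94, adjusted p = 0.0239, or 0.0758 with no filter). A dimmer probe set of Nr3c1 fell too (-0.58, adjusted p = 0.0301, or 0.0734 with no filter). The brightest probe sets of these genes did not pass (-0.41, adjusted p = 0.0759, for Egr2 and -0.25, 0.0581, for Nr3c1). Nor did the remaining Nr3c1 probe sets.

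Surface and secreted markers of preadipocytes also split. Of 13 genes 12 had a singly named probe set and 10 passed the filter, of which 3 rose and 3 fell, with a median of -0.31. Dlk1, the preadipocyte factor that restrains differentiation, had 500, 544 and 634 with BMP4 and 272, 205 and 199 without it, a change of 1.26 ± 0.12 (SE, limma adjusted p = 7.88e-05). The surface glycoprotein Cd24a (1.92) and the collagen Col15a1 (1.62) rose too. Those that fell were Ccn5, the progenitor receptor Pdgfra (-0.90) and the cells' own Bmp4 (-0.87), the last pair named after their values were seen. None of these calls was lost in the 17 alternative settings.

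Of 10 genes listed here as holding back adipogenesis 9 had a singly named probe set. That role was not tested in these cells for any of them. At 1 probe set per gene 2 rose and 1 fell, with a median of 0.02. Hes1, a repressor induced by Notch, had 134, 121 and 115 with BMP4 and 36.8, 65.1 and 57 without it, a change of 1.03 ± 0.17 (SE, limma adjusted p = 0.00306), or 0.69 with a pseudocount of 64. Sox9, which directs cartilage formation, rose by 1.29 (adjusted p = 6.52e-06). Another bright Sox9 probe set rose too (1.26, adjusted p = 0.000208), and a Sox9 probe set at background gave -0.10 (adjusted p = 0.812). The calcium-regulated factor Nfatc4 fell by 0.45 (adjusted p = 0.00746) on 1423380_s_at (0.0641 without the intensity trend), and its other probe sets gave -0.47 (adjusted p = 0.055) and -0.19 (0.381). Outside the count, a dim probe set of Ddit3 rose by 0.95 (adjusted p = 0.0378, or 0.111 with no filter), with control values below background. The brightest Ddit3 probe set gave 0.19 (adjusted p = 0.213).

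**Figure D4:**
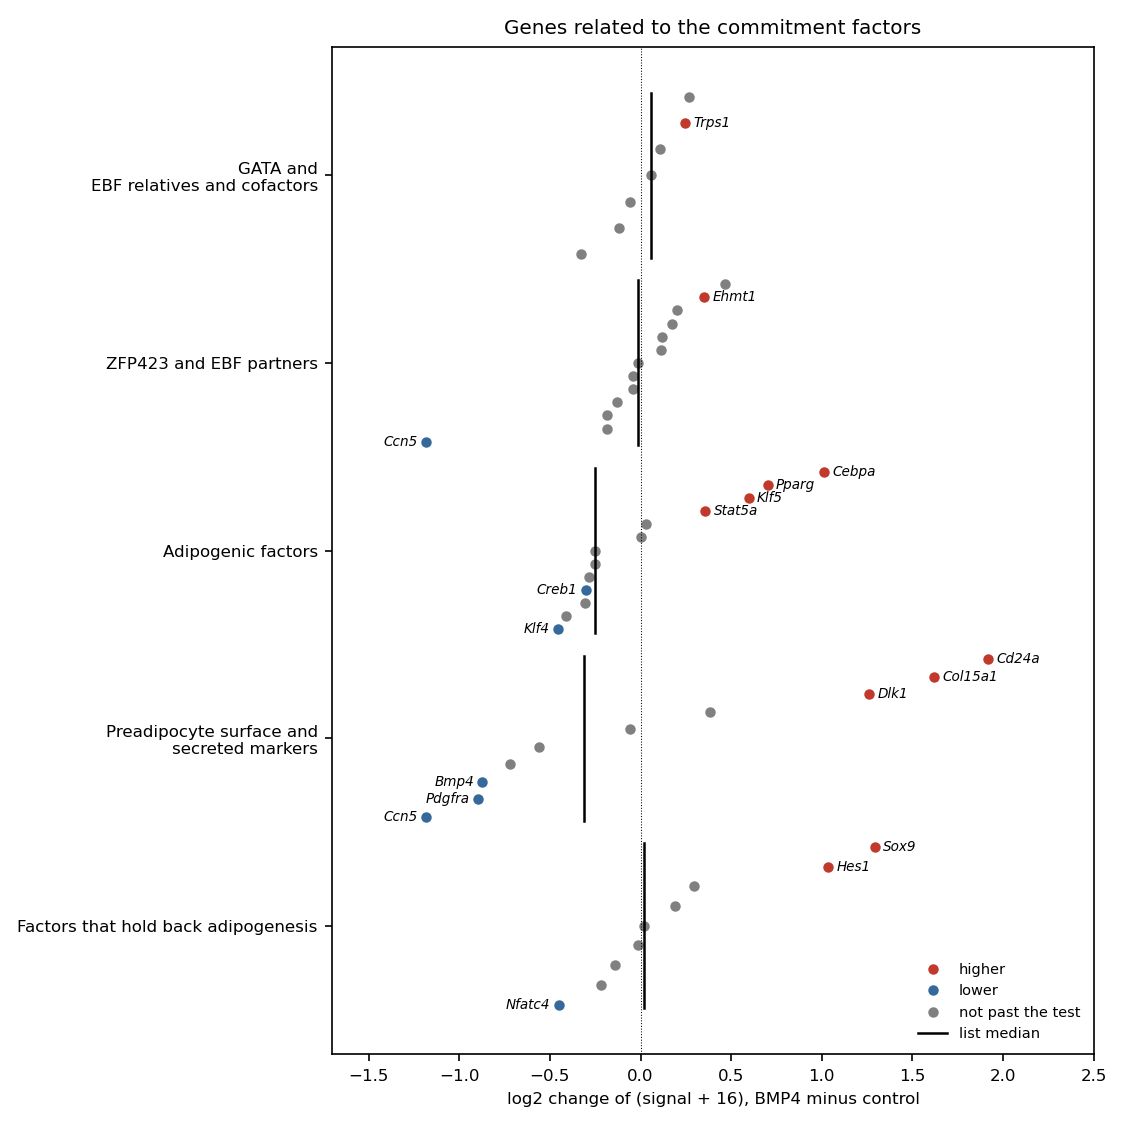
Log2 change of (signal + 16), BMP4 minus control, for 5 lists of genes related to the commitment factors, with 1 probe set per gene that passed the filter. Red points rose, blue points fell, grey points did not pass the test, and vertical lines are list medians, which run from -0.31 to 0.06. Changed genes lie on both sides of 0 in 4 of the 5 lists.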

How the data were processed

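The 6 RNA samples were grouped by their titles into 3 with BMP4 and 3 controls. The authors deposited linear signal intensities, which per the submitters' processing notes came from GCOS 1.3. How GCOS scaled the arrays and corrected background is not given in the sources used. The equal trimmed means are what a global scaling gives, which hides any shift shared by most transcripts, and no further scaling was applied.

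After removal of 64 control probe sets and addition of 16, log2 values entered limma 3.58.1 under R 4.3.3, a two-sided moderated test with an intensity trend. The test was first run on simulated data. Platform symbols named 34958 probe sets singly, and 932 with several symbols were not used for names. A gene outside the members is represented by its tested probe set of highest mean. Members, lists and alternatives were chosen with earlier results of these data known. Named genes are all members, up to 3 called genes per list by size of change, Pparg, Cebpa and Ccn5, and the 5 genes most like the member with the smallest p. Other genes, cell type markers included, are named after their values were seen. Alternatives were other pseudocounts, filters, scalings, eBayes and weight settings, a replicate block and leaving out each array. Protein comparisons planned at the outset were not made.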

Additional observations from a re-analysis of the deposited data

How the results depend on the processing

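The calls of Zfp423 and Medag, and those of Ebf1 on 1416301_a_at and 1448293_at, kept their direction and passed the threshold in all 17 alternatives. Without the intensity trend 1422 probe sets were called and 4 member probe sets were lower. The counts there were 0 higher for GATA and EBF relatives and 0 higher for ZFP423 and EBF partners. Adipogenic factors then had 2 higher and 1 lower, and genes listed as holding back adipogenesis had 0 lower. With median centring relatives and partners had 0 higher, adipogenic factors had 5 lower, and the Gata2 probe set 1428816_a_at (-0.034) and the Gata6 probe set 1425463_at (-0.012) turned negative. With no filter partners had 0 higher and adipogenic factors 1 lower. With quantile normalization or cyclic loess 2 genes listed as holding back adipogenesis were lower. Leaving out 1 array gave 1622 (without control replicate 2) to 1996 called probe sets, 6 to 7 lower member probe sets, 0 higher relatives, 0 to 1 higher partners and 1 to 4 lower adipogenic factors. It moved 1428816_a_at over -0.013 to 0.12, 1425463_at over -0.018 to 0.18 and the dim Ebf1 probe set 1457441_at over -0.32 to 0.16. The causes of these shifts were not tested. Deviations of same-numbered samples correlated at 0.00187, -0.00307 and -0.0529, so no shared deviation was seen. Such values cannot show whether same-numbered samples were handled together. With the replicate block 2090 probe sets were called, the member calls were 1 higher and 7 lower, and relatives had 0 higher. Signals near 29.1 limit what can be said of Zfp467, Ebf2 and Gata3.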
